A study of Arabidopsis thaliana with 72 samples.

Results

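The transcriptional response of SA-deficient sid2-2 seedlings to N-hydroxy-pipecolic acid (NHP) was measured 15 min after treatment. The comparison held 3 libraries of sid2-2 seedlings given 0.5 mM NHP and 3 libraries of sid2-2 seedlings given mock solution (MS medium without NHP), which are 6 of the 72 libraries of the series, and 20926 of the 27655 Arabidopsis genes in the count table carried enough reads to be tested. The series applied NHP or mock to wild type Col-0, sid2-2 and fmo1-1 seedlings and collected them after 15 or 30 min, or after 3 or 6 h. Every sid2-2 library carried the same loss-of-function allele of ICS1, so mock and treated seedlings alike lacked the main route of SA synthesis. Each library came from the pooled whole seedlings of 1 well of a 6-well plate, with 15 seedlings of 10 days per well grown in liquid medium and 1 genotype per plate, so replicates were separate wells. The replicate error therefore describes the spread between wells, and root and shoot tissue were read together as poly(A) RNA.

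NHP is a mobile signal of systemic acquired resistance, the immunity that uninfected leaves acquire after a local infection. It is made from pipecolic acid by the monooxygenase FMO1, and it acts together with salicylic acid (SA), most of which is made in infected leaves through the chloroplast enzyme ICS1. SA is perceived by the NPR proteins, which work with TGA transcription factors, and many WRKY transcription factor genes respond to it. The sid2-2 seedlings address which early NHP-responsive genes change when ICS1-derived SA cannot be made.

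Libraries held between 20426502 and 26696089 counts, with a median of 23797624. ICS1, the gene lost in sid2-2, had 1.13, 0.741 and 0.68 CPM (counts scaled to a common library size) in the NHP libraries of sid2-2, against 0.976, 0.511 and 0.526 CPM in its mock libraries. Between mock seedlings of both genotypes at 15 min, sid2-2 against Col-0, ICS1 had a log2(FC) of -3.40 ± 0.18 (SE, n = 3 each, edgeR quasi-likelihood test, Benjamini-Hochberg adjusted p = 2e-19), as its Col-0 mock values lay between 7.17 and 8.96 CPM. NHP did not change ICS1 detectably in sid2-2 (log2(FC) 0.28, adjusted p = 0.608). By the recorded set-up of the experiment, all sid2-2 mock wells at 15 min belonged to batch 1. NHP replicate 1 of sid2-2 belonged to batch 2 and NHP replicates 2 and 3 to batch 3. NHP treatment and batch therefore cannot be told apart in any result given here. In Col-0 at 15 min, all mock wells belonged to batch 1 and all NHP wells to batch 2. The difference in response between sid2-2 and Col-0 is thus also tied to batch, through sid2-2 NHP replicates 2 and 3.

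Mock replicates 2 and 3 stood apart in opposite directions. Mock replicate 2 had 250 genes more than 2-fold above the mean of the other 2 mock libraries, whereas the other 11 libraries of sid2-2 and Col-0 at 15 min each had between 4 and 30 such genes, and mock replicate 3 had 243 genes at less than 1/2 of the mean of its fellows. The summed level of 29 detoxification and redox genes was 529.1, 609.8 and 512.3 CPM in the NHP libraries, against 599.7, 1106 and 412.5 CPM in the mock libraries, with mock replicate 2 the highest of all 6. Likewise the 33 tested rapid touch and stress genes summed to 929.1, 890.8 and 916.8 CPM with NHP, against 965.1, 1379 and 642.9 CPM with mock. The NHP libraries lay inside the range of the mock libraries for both gene groups. Of the named genes, 21 lost their call without mock replicate 2, 14 without mock replicate 1 and 3 without mock replicate 3. The number was 15 without NHP replicate 1, 9 without NHP replicate 2 and 15 without NHP replicate 3. Results that rest on mock replicate 2 are therefore given with and without it. The effect of leaving out mock replicate 3 or another library is given mostly as counts of calls, so a call kept without mock replicate 2 can depend on another library.

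NHP changed 884 genes in sid2-2 within 15 min at an adjusted p under 0.05, of which 464 rose (2.22% of all genes tested) and 420 fell (2.01%). Most changes were small. The genes that rose had a median log2(FC) of 0.28 with quartiles of 0.22 and 0.40, and 22 of them passed a log2(FC) of 1. Those that fell had a median of -0.57 with quartiles of -0.84 and -0.33, and 60 passed -1. All fold changes are moderated by a prior count of 2, which pulls genes of few counts towards 0. Leaving out mock replicate 2 brought the number of calls down to 252 (90 up and 162 down), whereas leaving out mock replicate 3 gave 1706 (880 up and 826 down). The count was 386 without mock replicate 1, 387 without NHP replicate 1 and 384 without NHP replicate 3, and the number of genes up was 733 without NHP replicate 2. The number of calls thus depended on single libraries, and the genes named below differ in how far they do.

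The genes considered first are 8 that the study grouped as early strong NHP genes, because they responded rapidly and stayed high, and 6 of the 8 encode WRKY factors. A pair of further genes of that group, which the study left out of its own list, is not treated here. Because the study drew this group from the same series, its direction in sid2-2 is not independent evidence. Promoters of 6 of the 8 are shown as examples, 4 of genes called under each alternative tried (WRKY38, WRKY54, GRX480 and NIMIN-2) and those of WRKY51 and WRKY70, since WRKY and TGA factors are the classes of regulator tied to SA and NHP. Each line gives the 250 bases before the RefSeq gene start (assembly TAIR10.1), read 5′ to 3′ on the strand of the gene. Capitals mark the W-box core TTGAC, bound by WRKY factors, and the TGA core TGACG, in either orientation (GTCAA and CGTCA on the other strand), as well as the G-box CACGTG. The TTGAC and TGACG motifs can overlap, as in CGTCAA.
WRKY38: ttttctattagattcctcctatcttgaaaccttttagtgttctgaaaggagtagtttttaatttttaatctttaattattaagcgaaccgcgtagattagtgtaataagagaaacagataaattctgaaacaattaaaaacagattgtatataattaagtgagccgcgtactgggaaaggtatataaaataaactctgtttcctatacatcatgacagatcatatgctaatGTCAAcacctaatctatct
WRKY54: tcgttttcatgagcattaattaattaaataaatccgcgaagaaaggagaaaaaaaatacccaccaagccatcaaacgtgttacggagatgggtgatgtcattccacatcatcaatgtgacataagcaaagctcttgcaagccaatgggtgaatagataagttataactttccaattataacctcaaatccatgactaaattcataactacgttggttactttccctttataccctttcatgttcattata
GRX480: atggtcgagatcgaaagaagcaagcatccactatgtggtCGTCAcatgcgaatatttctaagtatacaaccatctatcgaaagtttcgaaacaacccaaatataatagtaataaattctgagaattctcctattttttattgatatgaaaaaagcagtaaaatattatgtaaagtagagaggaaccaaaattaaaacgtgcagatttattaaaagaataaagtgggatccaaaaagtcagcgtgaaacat
WRKY51: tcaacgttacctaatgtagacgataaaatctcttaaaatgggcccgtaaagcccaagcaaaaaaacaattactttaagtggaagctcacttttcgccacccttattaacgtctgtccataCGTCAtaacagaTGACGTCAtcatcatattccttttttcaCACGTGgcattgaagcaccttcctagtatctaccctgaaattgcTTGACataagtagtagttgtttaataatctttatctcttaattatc
NIMIN-2: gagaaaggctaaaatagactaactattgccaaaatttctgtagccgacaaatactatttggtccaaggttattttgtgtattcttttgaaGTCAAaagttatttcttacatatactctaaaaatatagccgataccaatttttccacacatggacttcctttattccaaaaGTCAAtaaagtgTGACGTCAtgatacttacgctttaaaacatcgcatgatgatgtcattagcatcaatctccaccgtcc
WRKY70: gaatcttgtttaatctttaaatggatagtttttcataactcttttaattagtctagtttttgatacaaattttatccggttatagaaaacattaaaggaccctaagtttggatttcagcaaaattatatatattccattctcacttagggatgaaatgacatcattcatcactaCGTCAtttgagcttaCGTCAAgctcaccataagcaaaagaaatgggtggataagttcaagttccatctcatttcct

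The windows lie at chr5:7496991-7497240 on the minus strand for WRKY38, chr2:17002529-17002778 on the minus strand for WRKY54, chr1:10014257-10014506 on the minus strand for GRX480, chr5:25907997-25908246 on the plus strand for WRKY51, chr3:9471040-9471289 on the minus strand for NIMIN-2 and chr3:20910624-20910873 on the minus strand for WRKY70. WRKY51 held 3 TGA cores, 115, 118 and 130 bases before the start, besides 1 W-box core and 1 G-box. NIMIN-2 and WRKY70 each held 2 TGA cores, and GRX480 held 1 at 211 bases. WRKY38 held a single W-box core 19 bases before the start, and WRKY54 held none of the 3 motifs in this window. Of the early strong genes not shown, WRKY62 held 2 W-box cores and no TGA core, and WRKY59 held none of the 3 motifs. Among the 20818 tested genes with a promoter in the table, 45.2% held TTGAC, 19.2% held TGACG and 7.15% held CACGTG. Of the 454 genes up in sid2-2 with a promoter, 40.7% held TTGAC, 18.7% held TGACG and 5.07% held CACGTG. The full set of genes that rose thus carried these letters no more often than genes at large. Of the 21 among them up past a log2(FC) of 1, 47.6% held TTGAC, 33.3% held TGACG and 14.3% held CACGTG. Of the 419 genes down with a promoter, 54.7% held TTGAC, 17.2% held TGACG and 5.01% held CACGTG. Whether these shares differ from those of all genes was not tested. A match of letters is a description and does not show that a factor binds there.

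All 8 early strong genes, WRKY38, WRKY54, WRKY62, WRKY59, WRKY51, WRKY70, GRX480 and NIMIN-2, rose in sid2-2 at 15 min, against 2.22% of all genes tested. Their median log2(FC) was 2.1, against a median close to 0 for all genes. Without mock replicate 2, 8 of the 8 also rose, with a median of 2.32. The CPM of the 3 NHP libraries all lay above those of the 3 mock libraries in 7 of the 8, as in 8.96% of all genes.

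WRKY38, which encodes a WRKY factor known to restrain basal defence together with WRKY62, had the largest rise. It had 2.31, 3.38 and 2.55 CPM in the NHP libraries, against 0.0849, 0.255 and 0.202 CPM in the mock libraries. This gave a log2(FC) of 3.43 ± 0.40 (SE, n = 3 each, edgeR quasi-likelihood test, adjusted p = 8.53e-07). The transcript was nearly absent from mock seedlings, with 2, 5 and 5 counts, and each NHP library exceeded each mock library. WRKY62 was rarer, at 0.343, 0.88 and 0.467 CPM with NHP, against 0.0424, 0.0511 and 0.0809 CPM with mock, and it rose by a log2(FC) of 2.17 (adjusted p = 0.00429).

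WRKY54, a paralogue of WRKY70 that acts with it as a regulator of SA levels and defence, had the smallest adjusted p of the 8. Its values were 5.05, 4.68 and 2.85 CPM in NHP libraries, against 0.594, 0.511 and 0.485 CPM in mock libraries. The log2(FC) was 2.79 ± 0.21 (SE, n = 3 each, edgeR, adjusted p = 7.99e-13). Even the lowest NHP library stood well above the mock libraries, which were nearly alike. WRKY70 itself was more abundant and rose less, with 7.75, 7.46 and 6.5 CPM with NHP, against 3.23, 6.74 and 2.35 CPM with mock (log2(FC) 0.84 ± 0.23, edgeR adjusted p = 0.0303). Its groups overlapped through mock replicate 2, and without that library its log2(FC) was 1.35 (adjusted p = 0.000185). It lost its call when any other of the 6 libraries was left out.

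GRX480, a CC-type glutaredoxin that interacts with TGA factors, had 1.23, 1.76 and 1.40 CPM with NHP, against 0.212, 0.204 and 0.0809 CPM with mock. Its log2(FC) was 2.64 ± 0.40 (SE, n = 3 each, edgeR, adjusted p = 2.22e-05). NIMIN-2, whose protein binds NPR1, had 2.16, 2.50 and 2.34 CPM with NHP, against 0.976, 0.971 and 1.01 CPM with mock. The spread within either group was far below the distance between them, and the log2(FC) was 1.17 ± 0.21 (edgeR adjusted p = 0.000402). WRKY51, which with WRKY50 takes part in the repression of jasmonate signalling, had 1.96, 2.83 and 2.17 CPM with NHP, against 0.467, 1.12 and 0.607 CPM with mock (log2(FC) 1.59, adjusted p = 0.00295). WRKY59 rose by a log2(FC) of 2.03 (adjusted p = 0.00808) from very few mock counts, 2, 4 and 0. WRKY38, WRKY54, GRX480 and NIMIN-2 kept their call and direction under each alternative that was tried, including the NHP libraries of batch 3 alone and the NHP library of batch 2 alone, a single library whose spread is taken to be that of the other groups.

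A pair of genes that the study placed among its late strong NHP genes was read beside these, and neither passed the test at 15 min. NAC004, a NAC transcription factor gene, had 0.491, 0.417 and 0.425 CPM with NHP, against 0.297, 0.255 and 0.243 CPM with mock (log2(FC) 0.59, adjusted p = 0.412). These values came from 10, 9 and 10 counts, against 7, 5 and 6 counts. LURP1, known as a gene induced late in resistance to an oomycete, had no counts in the 3 NHP libraries, against 0, 1 and 2 counts in the mock libraries, too few for a fold change at this depth.

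**Figure D1:**
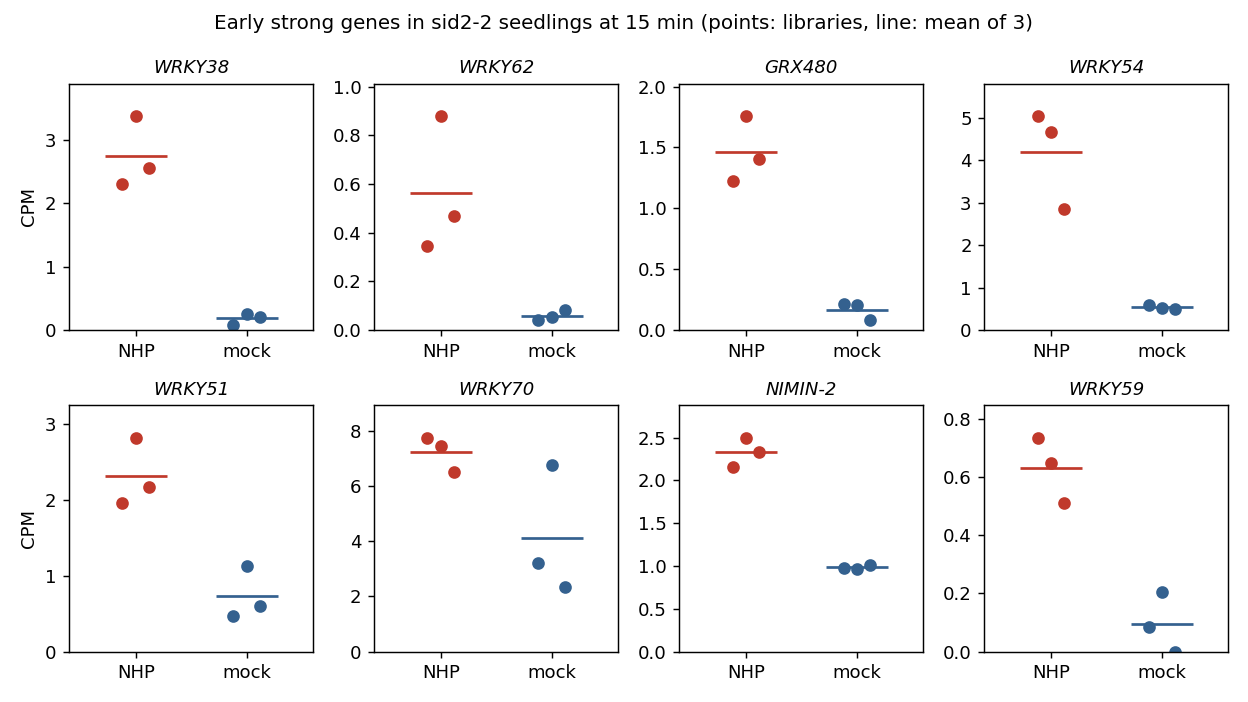
CPM of the 8 early strong genes in each sid2-2 library at 15 min, with NHP left (red) and mock right (blue), 1 panel per gene on its own linear scale from 0. Points are libraries and lines are means of 3. WRKY38, WRKY54, GRX480 and NIMIN-2 show no overlap, and in WRKY70 mock replicate 2, at 6.74 CPM, reaches the NHP libraries.

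The same genes were read in Col-0 and at the later times for their course. In Col-0 at 15 min, 8 of the 8 early strong genes rose, against 0.832% of all genes tested, with a median log2(FC) of 2.57. WRKY54 rose by 2.79 in sid2-2 and 2.66 in Col-0, GRX480 by 2.64 in sid2-2 and 2.95 in Col-0, NIMIN-2 by 1.17 in sid2-2 and 1.40 in Col-0, and WRKY38 by 3.43 in sid2-2 and 4.97 in Col-0. None of the 8 differed between the genotypes in the test of the difference itself (interaction term in edgeR), in which 0.00478% of all genes were called. An unadjusted p under 0.05 was found for 1 of the 8, against 1873 of all 20926 genes tested, and none of the 8 was called in DESeq2. For WRKY38 the difference was -1.53 (adjusted p = 0.566). In sid2-2 the median of the 8 genes was 2.1 at 15 min and 2.77 at 30 min, and later 2.47 at 3 h and 2.32 at 6 h. At each of the 4 times 8 of the 8 were called up, against 464, 139, 1178 and 1141 of all 20926 genes tested. WRKY38 reached 5.29 at 30 min and had 2.37 at 6 h, whereas GRX480 had its highest log2(FC) of 2.64 at 15 min and 1.73 at 6 h. In fmo1-1, which lacks the enzyme that makes NHP, 7 of the 8 rose at 15 min and none fell, against 3.95% of all genes called in either direction. None of the 8 differed between sid2-2 and fmo1-1 in edgeR, where 1.36% of all genes did. An unadjusted p under 0.05 in that test was found for 1 of the 8, against 2986 of all 21042 genes. Of the late strong pair, NAC004 was called up in sid2-2 from 30 min on (log2(FC) 2.17 at 30 min) and LURP1 at 6 h (3.29). Both were called up in Col-0 at 15 min (1.46 for NAC004 and 2.20 for LURP1), and LURP1 fell in fmo1-1 at 15 min (-2.39, edgeR adjusted p = 0.0117).

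A second set of 19 genes is a selection, made by the study, from the group it called early transient because its genes were induced and then returned, and contains jasmonate, ethylene and calcium signalling genes. This group too was drawn by the study from this series, so its direction is not independent evidence. In sid2-2 at 15 min 6 of the 19 rose, against 2.22% of all genes tested, and none fell, with a median log2(FC) of 1.04. In Col-0, 16 of the 19 rose, against 0.832% of all genes tested, with a median of 1.95. Without mock replicate 2, 4 members rose in sid2-2, since ERF109 (1.24, adjusted p = 0.214) and AT3G14260 (0.91, adjusted p = 0.0623) no longer passed.

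FAMT-L, a methyltransferase gene of the SABATH family, had 0.638, 2.27 and 1.19 CPM with NHP, against 0.297, 0.102 and 0.404 CPM with mock. It rose by a log2(FC) of 2.00 ± 0.42 (SE, n = 3 each, edgeR, adjusted p = 0.00281). ERF13, an ethylene response factor, had 3.04, 5.00 and 3.31 CPM with NHP, against 1.61, 1.69 and 1.01 CPM with mock (log2(FC) 1.36, edgeR adjusted p = 0.000514). In both genes NHP replicate 2 was the highest library. CML39, a calmodulin-like calcium sensor, had 1.23, 1.62 and 1.44 CPM with NHP, against 0.467, 0.511 and 0.364 CPM with mock (log2(FC) 1.52, adjusted p = 0.00846). JAZ10, a repressor of jasmonate signalling, had 6.43, 8.85 and 8.37 CPM with NHP, against 3.61, 3.37 and 3.32 CPM with mock (log2(FC) 1.18, adjusted p = 0.000337). ERF109 (1.52, adjusted p = 0.0416) and AT3G14260 (0.91, adjusted p = 0.015) were the other members called, and ERF109 shares its locus with other annotated transcripts whose reads may not be separated.

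Among the 13 members that did not pass were genes of high mock spread. WRKY40, a stress-inducible WRKY factor, had 15.5, 15.2 and 15.2 CPM with NHP, against 14.3, 20.1 and 5.86 CPM with mock (log2(FC) 0.20, adjusted p = 0.754). AT2G32140 had 2.94, 3.1 and 2.08 CPM with NHP, against 3.69, 10.7 and 1.42 CPM with mock. For both genes the NHP libraries lay between the lowest and highest mock libraries. MYC2, the central jasmonate transcription factor, had 24.5, 43.4 and 31.8 CPM with NHP, against 23.9, 20.6 and 15.5 CPM with mock, which was not called (log2(FC) 0.73, adjusted p = 0.289). MYC2 overlaps another annotated gene, AT1G32630, by 3241 bases on the other strand, so reads may be shared. The defensin gene PDF1.2A had 19.62, 11.6 and 17.3 CPM with NHP, against 12.8, 4.19 and 6.15 CPM with mock (log2(FC) 1.04, adjusted p = 0.441). PR1, the SA marker of later stages, had 2, 0 and 0 counts with NHP, against 3, 1 and 0 counts with mock, and no fold change was read from them. ERF13 rose by 1.36 in sid2-2 and 3.2 in Col-0, a difference of -1.84 that did not pass (adjusted p = 0.0655). In sid2-2 5 of the 19 were up at 30 min, 4 at 3 h and 1 at 6 h. Among all 20926 genes tested, 139 were up at 30 min, 1178 at 3 h and 1141 at 6 h. Of the 19, AT2G32140 and CNGC19 responded lower in sid2-2 than in fmo1-1 by the test of the difference, and both carry their highest sid2-2 mock value in mock replicate 2.

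**Figure D2:**
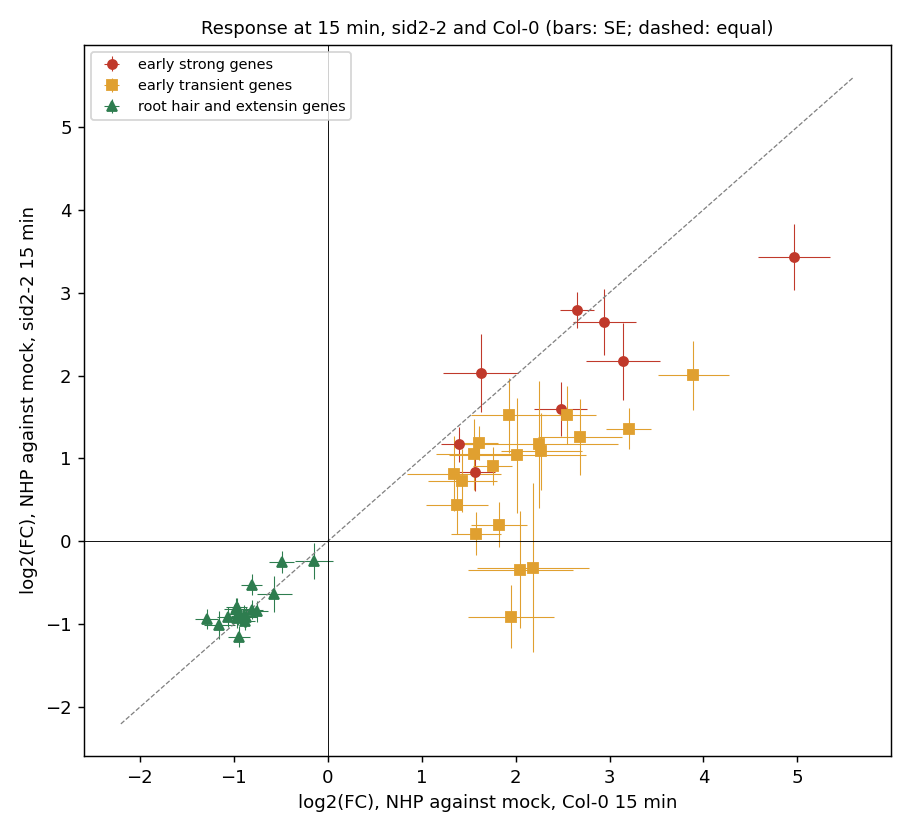
Log2(FC) of NHP against mock at 15 min in sid2-2 (vertical axis) and in Col-0 (horizontal axis) for the early strong genes (circles), the early transient genes (squares) and the root hair and extensin genes (triangles), with bars of 1 SE and a dashed line of equal response. The root hair genes lie near the dashed line, with medians of -0.89 in sid2-2 and -0.91 in Col-0, and most early transient genes lie below it, with medians of 1.04 in sid2-2 and 1.95 in Col-0.

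Genes used in root hairs fell at 15 min. Their list was chosen with earlier results of these data known, so its direction is not independent evidence. Root hairs are tubular outgrowths of single epidermal cells, and their walls are built with expansins, extensins, proline-rich proteins, arabinogalactan proteins, xyloglucan enzymes and peroxidases. Of 18 root hair and extensin genes, 15 fell in sid2-2 and none rose, against 2.01% of all genes tested that fell, with a median log2(FC) of -0.89. In 17 of the 18 the 3 NHP libraries all lay below the 3 mock libraries, as in 8.33% of all genes. The summed level of the group was 366.7, 465.8 and 460.5 CPM with NHP, against 794.4, 820.6 and 760.6 CPM with mock, and 15 members also fell without mock replicate 2.

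EXPA7, an expansin that loosens root hair walls, had 9.37, 11.1 and 10.1 CPM with NHP, against 23.2, 21.7 and 23.1 CPM with mock. It fell by 1.15 on the log2 scale (SE 0.13, n = 3 each, edgeR quasi-likelihood test, adjusted p = 5.5e-07). Its sister gene EXPA18 had 10.6, 10.3 and 12.7 CPM with NHP, against 20.6, 20.1 and 21.2 CPM with mock (log2(FC) -0.88). In both genes every NHP library was at about the same level, well below the mock libraries. PRP3, a proline-rich wall protein of root hairs, had 46.2, 63.2 and 57.4 CPM with NHP, against 107, 111 and 101 CPM with mock (log2(FC) -0.93), and PRP1 fell by 1.01 on the log2 scale. XTH14, a xyloglucan endotransglucosylase, had 33.1, 39.5 and 38.9 CPM with NHP, against 72.1, 76.0 and 68.5 CPM with mock (log2(FC) -0.95). EXT12, an extensin, had 41.5, 56.7 and 54.9 CPM with NHP, against 96.0, 99.8 and 93.4 CPM with mock (log2(FC) -0.91). NHP replicate 1 was the lowest library for most of these genes.

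The peroxidases PER44 (-0.90), PER7 (-0.82) and RHS19 (-0.91), the pectin methylesterase gene RHS12 (-0.93), the arabinogalactan protein gene AGP3 (-0.82), the extensin-like LRX1 (-0.80), MOP10 (-0.90), RHS13 (-0.84) and the COBRA-like gene COBL9 (-0.52) also fell, where each value is a log2(FC). PER44 overlaps another annotated gene, AT4G26020, and the strand of the counting is not stated. Members that did not pass were the transcription factor genes RSL4 and RHD6, which set the growth and fate of hair cells, and the extensin-like LRX2. RSL4 had 1.28, 1.85 and 1.87 CPM with NHP, against 2.38, 2.96 and 2.63 CPM with mock (log2(FC) -0.63, edgeR adjusted p = 0.0762). RHD6 had 1.86, 2.04 and 1.57 CPM with NHP, against 2.63, 2.45 and 1.46 CPM with mock (log2(FC) -0.24, adjusted p = 0.599), and it was the only member whose groups overlapped. LRX2 had a log2(FC) of -0.25 (adjusted p = 0.302).

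**Figure D3:**
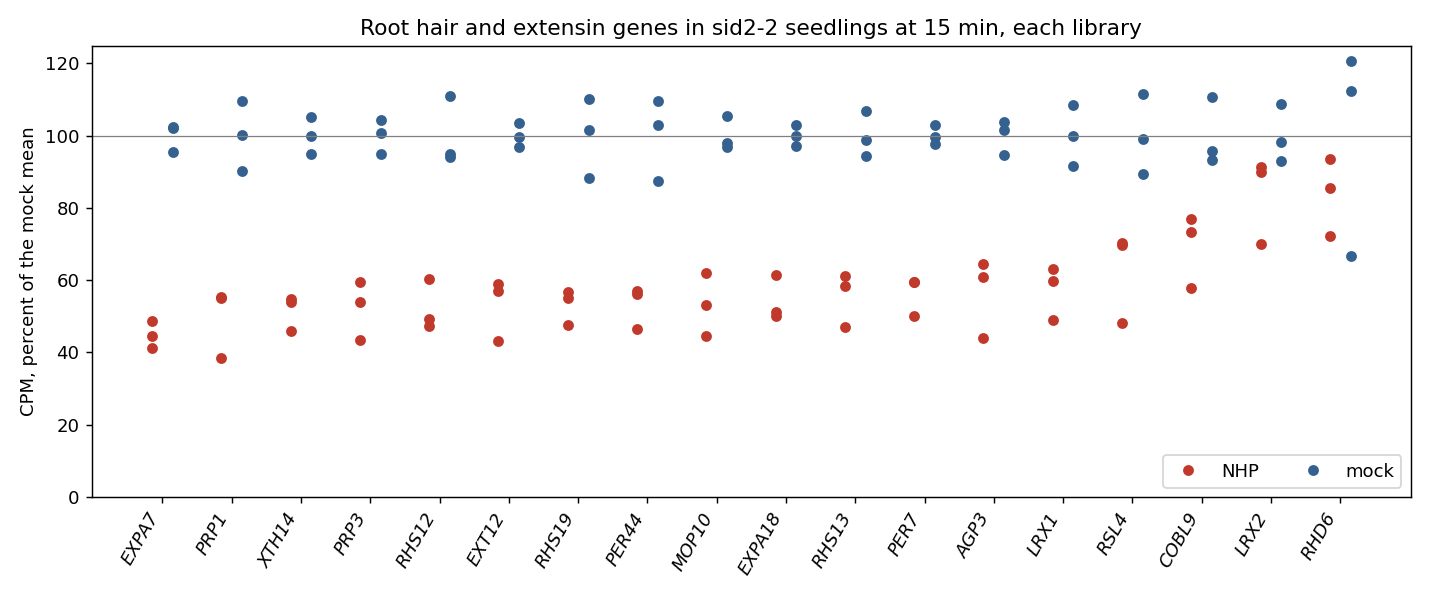
CPM of 18 root hair and extensin genes in each sid2-2 library at 15 min, as percent of the mean of the 3 mock libraries of that gene (linear axis from 0), with NHP points (red) left of mock points (blue). The groups are apart in 17 genes and overlap in RHD6.

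Genes of other parts of the root had a median change nearer to 0. Only 2 of 9 root markers had a log2(FC) above 0. In 3 of the 9 the NHP libraries all lay below the mock libraries, as in 8.33% of all genes. Among all genes tested 2.01% were called down. Of 9 root markers 1 fell, CASP1 of the endodermal Casparian strip (log2(FC) -0.29, edgeR adjusted p = 0.0303, lost without mock replicate 2 at adjusted p = 0.176), and the median of the 9 was -0.06. Their summed level was 3908, 4200 and 4387 CPM with NHP, against 4394, 3976 and 4111 CPM with mock. None of 8 shoot markers was called in edgeR, and 1 was called in DESeq2. An unadjusted p under 0.05 in edgeR was found for 2 of the 8, against 4008 of all 20926 genes tested. The shoot markers had sums of 36041, 35648 and 38694 CPM with NHP, against 35957, 35718 and 37622 CPM with mock. Of 6 seed and flower markers 2 passed the filter on low counts and neither was called. In whole seedlings, fewer cells of a type and less RNA per cell cannot be told apart, and this holds for the root hair genes here.

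**Figure D4:**
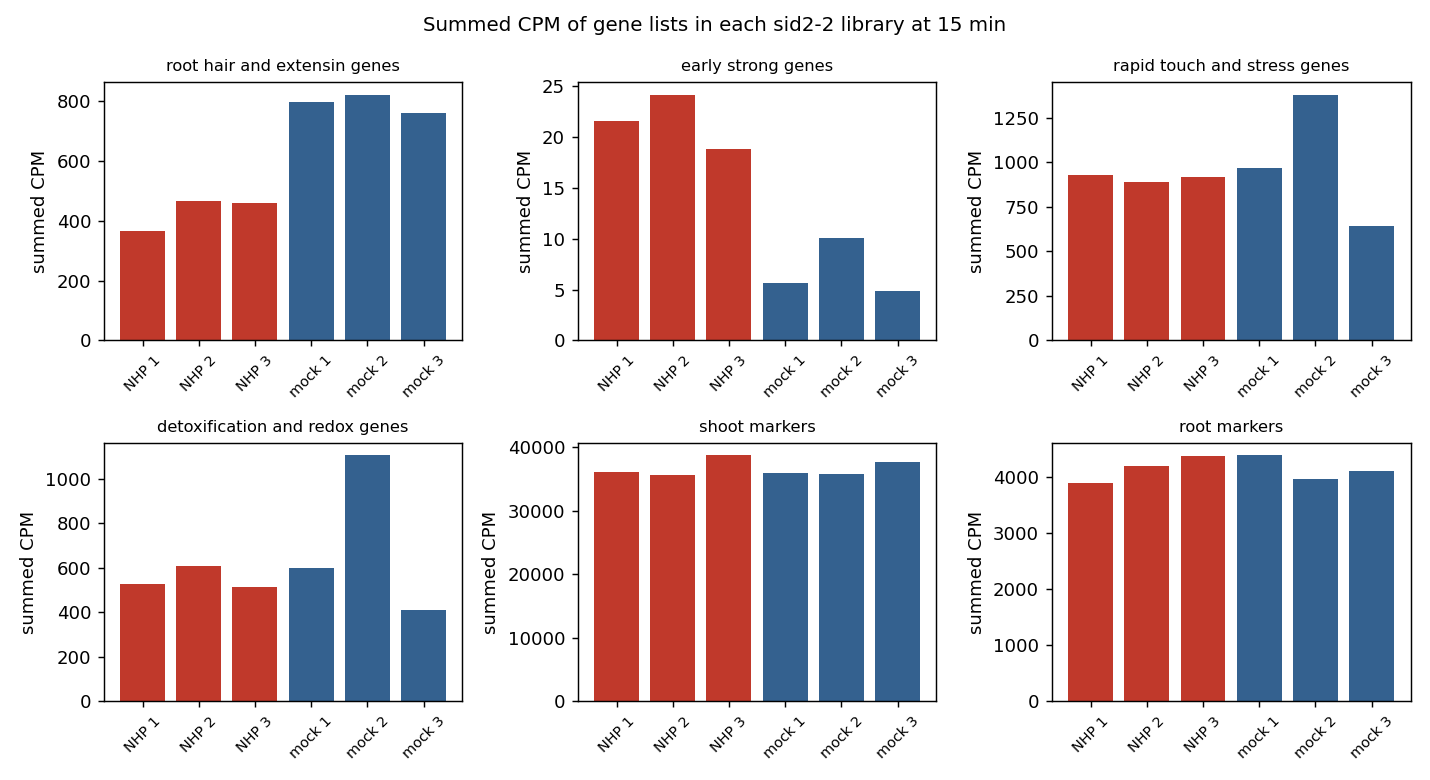
Summed CPM of 6 gene groups in each sid2-2 library at 15 min, NHP libraries (red) left of mock libraries (blue), bars from 0 on linear scales of their own. The root hair sum is 366.7 to 465.8 CPM with NHP and 760.6 to 820.6 CPM with mock, the root and shoot marker sums overlap, and mock replicate 2 is the highest library for the rapid stress and detoxification groups.

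The root hair genes fell in the other genotypes and at the other times as well. In Col-0 at 15 min 16 of the 18 fell, against 1.51% of all genes tested, with a median log2(FC) of -0.91. In fmo1-1 16 fell, against 560 of all 21042 genes tested, with a median of -0.88. No member differed between sid2-2 and Col-0 by the test of the difference in edgeR or DESeq2 (1 at an unadjusted p under 0.05), nor between sid2-2 and fmo1-1 in edgeR (0 at an unadjusted p under 0.05). Over all genes the unadjusted counts in edgeR were 1873 of 20926 against Col-0 and 2986 of 21042 against fmo1-1. EXPA7 had -1.15 in sid2-2 and -0.94 in Col-0, and PRP3 had -0.93 in sid2-2 and -1.29 in Col-0. In sid2-2 the median was -0.89 at 15 min and -1.10 at 30 min, and later -0.98 at 3 h and -1.09 at 6 h. At these times 15, 15, 16 and 16 members were down, against 420, 212, 1275 and 978 of all 20926 genes tested. RSL4 (-0.63 at 15 min and -0.10 at 6 h) and RHD6 (-0.24 at 15 min and -0.08 at 6 h) were nearer to 0 at 6 h, although neither was called at either time.

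**Figure D5:**
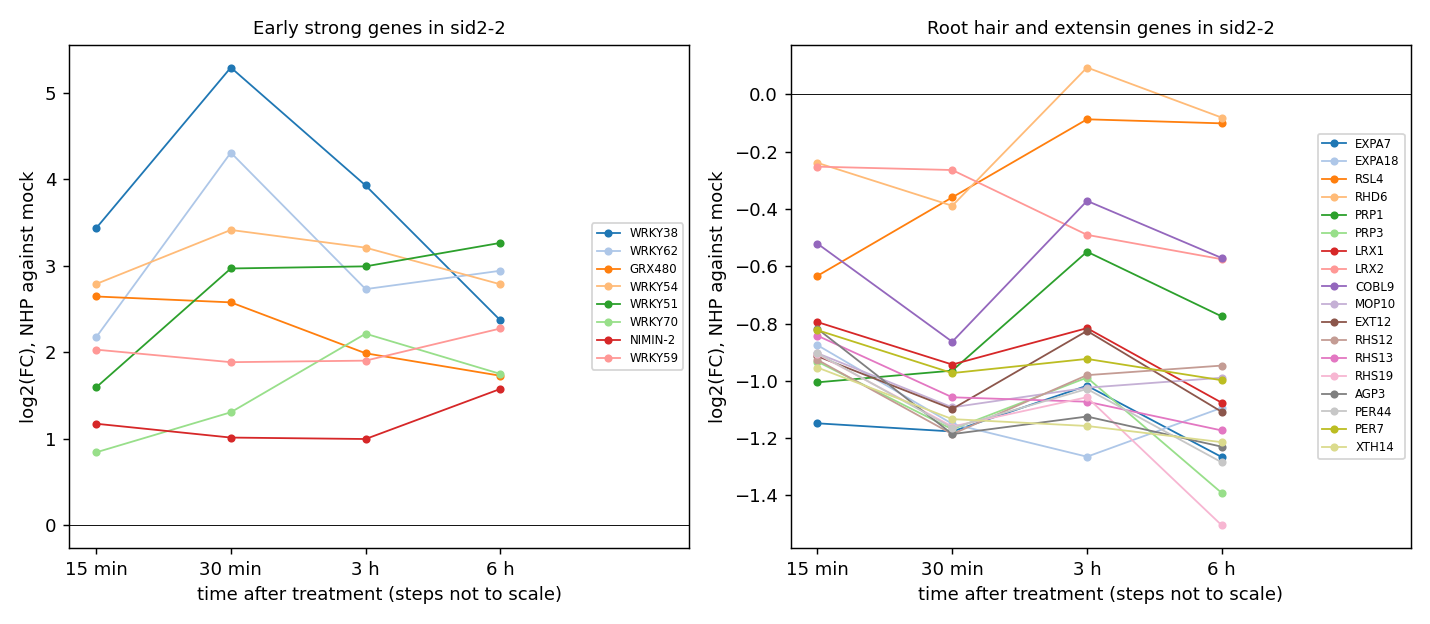
Log2(FC) of NHP against mock in sid2-2 over the 4 times from 15 min to 6 h for the 8 early strong genes (left) and the 18 root hair and extensin genes (right), 1 line per gene, with times at equal steps. WRKY38 peaks at 30 min with 5.29, and most root hair genes stay near -1 from 15 min on.

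Among the 12 genes with the largest increase whose libraries did not overlap were 7 of the study's early strong and early transient genes and VSP2, described with the jasmonate genes. The other 4 were the myrosinase-binding protein genes MBP1 (1.93) and MBP2 (1.82), the jacalin lectin gene JAL23 (1.64) and AT2G07674 (1.29), each value a log2(FC). MBP2 had 2.94, 3.75 and 4.46 CPM with NHP, against 1.1, 0.817 and 1.05 CPM with mock, and without mock replicate 2 its adjusted p was 0.0753 (edgeR). JAL23 (1.5, adjusted p = 0.193) and AT2G07674 (1.05, adjusted p = 0.23) were likewise not called without that library, whereas MBP1 was.

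The 12 genes with the largest decrease differed in how far they rested on mock replicate 2. AGD11 had 0.589, 0.417 and 1.15 CPM with NHP, against 2.76, 1.84 and 2.14 CPM with mock (log2(FC) -1.53 ± 0.26, SE, n = 3 each, edgeR adjusted p = 0.000236). ROPGEF10, which activates ROP GTPases, had 0.785, 0.926 and 0.935 CPM with NHP, against 2.38, 2.50 and 1.98 CPM with mock (log2(FC) -1.28). Both kept their call under each alternative that was tried. XTH26, another xyloglucan endotransglucosylase gene, had 6.82, 6.11 and 9.47 CPM with NHP, against 17.5, 19.4 and 15.3 CPM with mock (log2(FC) -1.20, adjusted p = 5.28e-06). G3Pp2, a glycerol-3-phosphate permease gene, had 2.35, 3.75 and 4.21 CPM with NHP, against 7.64, 10.7 and 7.52 CPM with mock (log2(FC) -1.28). AT5G24313 (-1.43), AT2G29000 (-1.29), AT4G29450 (-1.28), AT1G07680 (-1.25), MES13 (-1.22) and AT4G20450 (-1.20) had similar values, each a log2(FC). Without mock replicate 2, AT2G29000 (-1.14, adjusted p = 0.124), AT4G29450 (-1.16, adjusted p = 0.099) and AT1G07680 (-0.95, adjusted p = 0.146) were no longer called.

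The other 2 of the 12, with the most negative fits, also lost their call without mock replicate 2. AT1G13470 had 1.08, 1.3 and 0.595 CPM with NHP, against 1.87, 8.12 and 1.46 CPM with mock, so that its log2(FC) of -1.83 (edgeR adjusted p = 0.016) became -0.71 (adjusted p = 0.385) without that library. PXMT1, a methyltransferase gene, had 0.442, 0.232 and 0.34 CPM with NHP, against 0.764, 2.76 and 0.485 CPM with mock, and its log2(FC) of -1.70 became -0.75 (adjusted p = 0.522). The groups did not overlap in either gene, but the distance was set by 1 mock library.

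Of 11 tested genes that make or turn over SA and NHP 1 rose and 1 fell, and their median log2(FC) was -0.16. Among all genes tested 2.22% rose and 2.01% fell. DMR6, an SA hydroxylase, had 18.6, 19.0 and 17.3 CPM with NHP, against 13.2, 11.2 and 13.8 CPM with mock (log2(FC) 0.52 ± 0.11, SE, n = 3 each, edgeR adjusted p = 0.00628), and without mock replicate 2 it had 0.44 (adjusted p = 0.0695). PBS3, which conjugates isochorismate to glutamate on the way to SA, had 1.57, 1.95 and 0.85 CPM with NHP, against 1.87, 11.4 and 1.78 CPM with mock. Its log2(FC) of -1.69 (adjusted p = 0.0397) became -0.32 (adjusted p = 0.787) without mock replicate 2. FMO1 had 1.52, 1.95 and 1.95 CPM with NHP, against 1.70, 1.84 and 2.71 CPM with mock, which was not called at 15 min. In sid2-2 4 of the 11 were up at 30 min, 5 at 3 h and 8 at 6 h. Among all 20926 genes tested, 139 were up at 30 min, 1178 at 3 h and 1141 at 6 h.

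Of 21 SA perception and signalling genes 3 rose, against 2.22% of all genes tested, and none fell. NPR3, an SA receptor that works as a co-repressor, had 26.4, 31.0 and 28 CPM with NHP, against 19.4, 23.1 and 16.1 CPM with mock (log2(FC) 0.55 ± 0.09, SE, n = 3 each, edgeR adjusted p = 4.58e-05). NPR4, its close relative, had 11.4, 13.0 and 12.7 CPM with NHP, against 9.51, 8.48 and 9.83 CPM with mock (log2(FC) 0.41, adjusted p = 0.00364). Both rises were small and free of overlap, and NIMIN-2 was the other member called. NPR1, the co-activator, had 29.3, 28.02 and 34.3 CPM with NHP, against 32.9, 36.7 and 30.1 CPM with mock (adjusted p = 0.344). SARD1, a transcription factor gene that drives ICS1 and FMO1, had 5.54, 5.70 and 5.23 CPM with NHP, against 4.50, 5.57 and 3.40 CPM with mock (log2(FC) 0.30, adjusted p = 0.387).

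Of 15 tested genes of WRKY group III and relatives 6 rose, against 2.22% of all genes tested. These are the 6 WRKY genes of the early strong group, and the median of the 15 was 0.32. WRKY46 had 4.76, 4.68 and 4.25 CPM with NHP, against 2.63, 4.14 and 2.35 CPM with mock, and its log2(FC) of 0.59 did not pass (adjusted p = 0.2). WRKY33, a regulator of camalexin synthesis, had 77.7, 82.95 and 73.3 CPM with NHP, against 94.7, 140.6 and 55.6 CPM with mock, so that its mock spread enclosed the NHP libraries (adjusted p = 0.436). WRKY53 and WRKY18 had log2(FC) of 0.13 and 0.25 and were not called in sid2-2 at 15 min.

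The jasmonate lists had a median log2(FC) of 0.079 for synthesis genes and 0.165 for signalling, repressor and turnover genes. Among all genes tested 2.22% rose. Of 11 synthesis genes only AOC2, an allene oxide cyclase gene, rose (log2(FC) 0.46, edgeR adjusted p = 0.0224), and it was not called without mock replicate 2 (adjusted p = 0.191). Of 23 tested signalling, repressor and turnover genes 3 rose, JAZ10, JAZ2 (0.38, adjusted p = 0.0044) and VSP2. VSP2, a vegetative storage protein that marks jasmonate output, had 3.92, 3.80 and 3.36 CPM with NHP, against 1.1, 1.23 and 1.38 CPM with mock. Its log2(FC) was 1.51 ± 0.35 in sid2-2 (SE, n = 3 each, adjusted p = 0.0113) and 0.32 in Col-0, a difference that did not pass (adjusted p = 0.443), and without mock replicate 2 its adjusted p was 0.0541. Its response was higher in sid2-2 than in fmo1-1 by the test of the difference.

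Of 33 tested rapid touch and stress genes 4 rose and 1 fell in sid2-2 at 15 min, whereas 12 rose in Col-0. The group median was -0.03 in sid2-2 and 0.51 in Col-0. Among all genes tested 2.22% rose and 2.01% fell in sid2-2, and 0.832% rose in Col-0. ERF104, an ethylene response factor, had 26.6, 28.3 and 22.8 CPM with NHP, against 19.3, 16.7 and 15.0 CPM with mock (log2(FC) 0.61, edgeR adjusted p = 0.00596), and rose by 0.63 in Col-0. The other members up were ERF13, ERF109 and CML39. CML40 overlaps another annotated gene, AT3G01840, by 2067 bases on the other strand, so reads may be shared. CML40 had 0.981, 1.81 and 1.19 CPM with NHP, against 2.80, 8.58 and 1.17 CPM with mock, and its fall (log2(FC) -1.56, adjusted p = 0.0238) was lost without mock replicate 2 (-0.55, adjusted p = 0.516). Without that library the group median in sid2-2 was 0.16. Of 29 detoxification and redox genes 2 rose, GRX480 and the related glutaredoxin gene GRXS13 (0.49, adjusted p = 0.0127, and 0.45 with adjusted p = 0.0903 without mock replicate 2). Their median of -0.32 became 0.04 without mock replicate 2. By the test of the difference between sid2-2 and Col-0 in edgeR, none of the 33 rapid touch and stress genes was called, and DESeq2 called 1. None of the 29 detoxification and redox genes was called in edgeR or DESeq2. An unadjusted p under 0.05 in edgeR was found for 18 of the 33 and 5 of the 29, against 1873 of all 20926 genes tested.

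The last 3 groups had a median log2(FC) of -0.17 (iron), -0.14 (early auxin) and 0.07 (clock). Among all genes tested 2.22% rose and 2.01% fell. FIT, the transcription factor that drives iron uptake in roots, was the 1 of 18 tested iron genes that was called, with 3.14, 3.06 and 3.19 CPM with NHP, against 4.37, 5.93 and 5.70 CPM with mock (log2(FC) -0.75, edgeR adjusted p = 0.00544). None of 13 tested early auxin genes passed in edgeR or DESeq2. In edgeR 2 of them had an unadjusted p under 0.05, against 4008 of all 20926 genes tested. Of 14 clock genes, PRR5 (0.57, adjusted p = 0.000337) and LUX (0.23, adjusted p = 0.00266) rose and PRR9 (-0.43, adjusted p = 0.0233) fell, each value a log2(FC), and PRR9 was not called without mock replicate 2 (adjusted p = 0.0999). PRR5 had 24.6, 33.0 and 30.0 CPM with NHP, against 21.3, 20.02 and 17.7 CPM with mock. LUX overlaps another annotated gene, AT3G46650, by 1507 bases on the other strand, so reads may be shared.

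How far the sid2-2 response matched that of Col-0 was then counted over all called genes. Of the 489 genes called in Col-0 at 15 min, 190 were also called in sid2-2, each in the same direction, which is 38.9% of the Col-0 genes and 21.5% of the 884 sid2-2 genes. The share was 42 of 174 genes up in Col-0 (24.1%) and 148 of 315 genes down in Col-0 (47%). Of the 489 genes 444 (90.8%) had the same sign in sid2-2. The genes up in Col-0 had a median log2(FC) of 0.19 in sid2-2 and 0.54 in Col-0, and those down in Col-0 had -0.46 in sid2-2 and -0.65 in Col-0. Because the genes were chosen by their Col-0 values, the smaller sid2-2 medians are a description. Without mock replicate 2, 133 of the 489 were called in sid2-2. Both comparisons used separate mock libraries, grown on separate plates.

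Tests of the difference found few genes, and batch differed along with genotype or time in them. AT4G29780 was the only gene whose response differed between sid2-2 and Col-0. It had 15.6, 18.5 and 14.7 CPM with NHP, against 14.1, 18.5 and 10.6 CPM with mock in sid2-2, and 21.3, 25.3 and 22.7 CPM with NHP, against 10.4, 9.98 and 10.97 CPM with mock in Col-0. The log2(FC) was 0.18 in sid2-2 (adjusted p = 0.459) and 1.14 in Col-0 (adjusted p = 1.36e-08), a difference of -0.96 ± 0.17 (SE, edgeR adjusted p = 0.0385). No gene was called in this test without sid2-2 mock replicate 2, 272 were called without sid2-2 mock replicate 3, and 0 to 2 without any other 1 library of the 12.

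Between 15 min and 30 min the response of sid2-2 differed in 3 genes, or 0.0143% of those tested. The recorded set-up places the 15 min and 30 min wells of sid2-2 in different batches. Time and batch therefore cannot be told apart in this test. The labels of 30 min NHP replicate 3 go against each other, as its title gives 30 min and its time entry 180 min. It was used as 30 min by its title, and without it 1 gene was called. DMR6 rose less at 15 min (0.52) than at 30 min (1.58), a difference of -1.06 ± 0.16 (SE, n = 3 each, edgeR adjusted p = 0.00104), with 41.1, 36.1 and 36.2 CPM with NHP, against 11.4, 14.1 and 12.2 CPM with mock at 30 min. XYL1, an alpha-xylosidase that trims xyloglucan, had 288, 285 and 290 CPM with NHP, against 229, 224 and 234 CPM with mock at 15 min. Its log2(FC) was 0.33 at 15 min and -0.04 at 30 min (difference 0.37, adjusted p = 0.0363). OTP81, a pentatricopeptide repeat gene of chloroplast RNA editing, had 11.4, 11.2 and 12.02 CPM with NHP, against 7.13, 7.71 and 9.26 CPM with mock at 15 min, and its log2(FC) was 0.51 at 15 min and -0.15 at 30 min (difference 0.66, adjusted p = 0.0363). OTP81 overlaps another annotated gene, AT2G29770, by 442 bases on the other strand, so reads may be shared. XYL1 kept its call in sid2-2 at 15 min under each alternative tried. The number of genes called in this test was 365 without sid2-2 15 min mock replicate 3, 95 without 15 min NHP replicate 2, 24 without 30 min NHP replicate 2, and 1 without 15 min mock replicate 1 or 2, 15 min NHP replicate 1 or 3, 30 min mock replicate 3 or 30 min NHP replicate 3.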

How the data were processed

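Reads were 100 bp, paired and from poly(A) RNA. The authors trimmed and mapped them to the TAIR10 genome with CLC Genomics Workbench after FastQC and deposited whole-number read counts per gene, not normalized. Neither a counter nor a strand setting is given in the sources used here, so overlapping genes may share reads (14 of the 85 named genes overlap a gene on the other strand). All 72 sample columns were matched by title, and 0 per-sample columns were left unused. The 48 libraries of Col-0 and sid2-2 (16 groups of 3, 32 residual degrees of freedom) were fitted together in edgeR 4.0.16 (R 4.3.3, limma 3.58.1) after filterByExpr (minimum count 10, total 15) with TMM scaling, quasi-likelihood tests, a prior count of 2 and Benjamini-Hochberg adjustment over 20926 genes, called at 0.05. CPM were computed here from the counts and TMM-scaled library sizes (factors 0.9061 to 0.9586 in the 6 libraries). fmo1-1 came from a fit of 72 libraries over 21042 genes. Differences of responses were interaction contrasts of the same fits.

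Of the gene identifiers 27445 matched a RefSeq symbol table, and promoters came from RefSeq TAIR10.1, used for names and sequence only. Named genes were ICS1, the early strong and early transient genes of the study with 2 of its late strong genes (NAC004 and LURP1, held in the early strong list when it was set up), the 12 largest called changes in each direction with a mean count of at least 20 and groups that did not overlap, called members of the other lists, and up to 5 called genes per difference test. BGLU18, TSA1, ESP, ESM1, TGG1 and TGG2 of the myrosinase system were added to the named genes after their values were seen. Members and lists were chosen with earlier results of these data known. The scripts were tested on simulated data. Alternatives were DESeq2 1.42.0, RLE and upper quartile scaling, other filters, other sets of libraries, a replicate block, single batches, and each library left out. Figures were drawn with matplotlib 3.10.9. Batch is as the study's record of set-ups gives it. Counts of intact molecules cannot be told from PCR copies, so the depth covers counting error only.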

Additional observations from a re-analysis of the deposited data

Results flagged for a closer look

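The response to NHP of AT4G29780 differed between genotypes at 15 min by the test of the difference, being lower in sid2-2 than in Col-0 by a log2 difference of -0.96 (edgeR adjusted p = 0.0385). Between times in sid2-2, the response of DMR6 at 15 min was below that at 30 min by a log2 difference of -1.06 (adjusted p = 0.00104). The responses of XYL1 (0.37, adjusted p = 0.0363) and OTP81 (0.66, adjusted p = 0.0363) at 15 min were above those at 30 min. The CPM of the 3 NHP libraries were above those of the 3 mock libraries at 15 min in XYL1 and OTP81. In all of these differences, batch differed along with genotype or time.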

How the results depend on the processing

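The 884 calls of sid2-2 at 15 min were 999 in DESeq2 on the same 48 libraries and 1027 in edgeR on all 72. They were 865 with RLE and 834 with upper quartile scaling. On fewer libraries they were 301 (DESeq2, 6 libraries), 189 (edgeR, 6 libraries), 496 (edgeR, 12 at 15 min) and 387 (NHP batch 3 alone). Genes up, in the same order, were 160, 69, 259 and 188, and genes down 141, 120, 237 and 199, with 255 down for batch 2 alone, which holds 1 NHP library, assumed to vary like the other groups. Genes up past a log2(FC) of 1 were 13 in edgeR on the 6 libraries and 12 with batch 2 alone. Genes down past -1 were 22 in both DESeq2 and edgeR on the 6 libraries, 30 on the 12 libraries and 32 with batch 3 alone. The difference between sid2-2 and Col-0 called 7 genes in DESeq2 on 48 libraries, 45 in DESeq2 and 12 in edgeR on the libraries compared, 12 in edgeR on the 12 libraries and 0 on all 72. The difference between 15 and 30 min called 45 in DESeq2 on 48 libraries, 12 in DESeq2 and 1 in edgeR on the libraries compared, 7 on all 72, 101 with batch 2 alone and 1 with batch 3 alone. Apart from the smaller number of libraries in some of these fits, the cause was not tested. Leaving out each library in turn gave 252 to 1706 calls, 90 to 880 up, 162 to 826 down, 15 to 42 up past 1, 28 to 159 down past -1, 0 to 272 for the genotype difference and 1 to 365 for the time difference.

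Same-numbered NHP and mock deviations from the group means correlated at -0.02, 0.06 and 0.09, and different-numbered ones at -0.09 to 0.04. Deviations within 3 libraries sum to 0, so these values cannot decide whether replicate numbers paired the wells. With a replicate block 727 genes were called (384 up, 343 down), 8 for the genotype difference and 1 for the time difference.

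Of 67 named genes that were called, 25 kept call and direction under every alternative and none reversed. Of the 18 named genes that were not called, 6 had leave-one-out log2(FC) on both sides of 0, with ranges of -0.17 to 0.60 in WRKY40, -0.23 to 0.52 in CNGC19, -0.73 to 0.61 in WAK3, -0.76 to 0.10 in PR1, -1.37 to 0.084 in AT2G32140 and -0.0030 to 0.39 in AT4G29780. With the batch 2 NHP library alone, CNGC19 (-0.11) and PR1 (0.34) changed sign. A smaller prior count, chosen after seeing the data, gave 22 up past 1 and 65 down past -1. The values of the lists without mock replicate 2 were also chosen after seeing the data. Genes of a few counts limit what this depth can show.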

Other observations

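Genes of the myrosinase system, which splits glucosinolates when tissue is damaged, were noticed among the genes with the largest rise. The set was chosen after its values were seen and was given no test of its own. Of 13 such genes tested, 8 rose in sid2-2 at 15 min, against 2.22% of all genes tested, and none fell, with a median log2(FC) of 0.78. None was called in Col-0 in edgeR (median 0.22). In Col-0 3 of the 13 had an unadjusted p under 0.05, against 2627 of all 20926 genes tested. MBP1 (1.93) and MBP2 (1.82), myrosinase-binding proteins, had the largest log2(FC), followed by the jacalin lectin gene JAL23 (1.64), the beta-glucosidase gene BGLU18 (1.07), ESP (1.00), the myrosinase genes TGG2 (0.83) and TGG1 (0.56), and TSA1 (0.78). MBP1 had 1.67, 1.71 and 2.17 CPM with NHP, against 0.382, 0.255 and 0.607 CPM with mock. BGLU18 had 48.2, 56.4 and 56.3 CPM with NHP, against 28.9, 23.9 and 23.6 CPM with mock. Without mock replicate 2, 3 of the 13 were called, MBP1, BGLU18 and TSA1, while the adjusted p was 0.0753 for MBP2, 0.193 for JAL23, 0.16 for ESP, 0.161 for TGG1 and 0.201 for TGG2. The remaining members, JAL22, ESM1, NAI1, NAI2 and PYK10, were not called with or without that library. In its absence their log2(FC) were -0.13, 0.30, -0.065, -0.031 and -0.028, in that order. None of the 13 differed between sid2-2 and Col-0 by the test of the difference in edgeR or DESeq2. In edgeR 4 of them had an unadjusted p under 0.05 in that test, against 1873 of all 20926 genes tested.

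Genes annotated as ribosomal proteins by product name, likewise chosen after values were seen, rose by small amounts. Of 366 tested 62 rose in sid2-2 at 15 min, against 2.22% of all genes tested, and none fell, with called log2(FC) between 0.16 and 0.41 and a median over all 366 of 0.14 in sid2-2, against a median of 0.05 in Col-0 at 15 min and -0.02 in sid2-2 at 30 min. Without mock replicate 2 the count was 2 and the median 0.12.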
